A study of Mus musculus with 7 samples.

Results

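The transcripts examined were those of 9 genes that receive or clear glutamate: the AMPA receptor subunits Gria1, Gria2, Gria3 and Gria4, the receptor auxiliaries Cacng4, Cacng5 and Cacng7, and the glutamate transporters Slc1a2 and Slc1a3. They are 9 of the 32285 genes counted in every library, and they were listed by symbol. The list was chosen by measured values, namely the higher Gria1 counts in cKO cells that resemble neural stem cells (NSCs), so that the difference between cKO and control NSC-like cells was used in choosing the list and is given below as a description, without a test. Single-cell RNA sequencing of the ventricular-subventricular zone (V-SVZ), the adult germinal layer along the lateral ventricles, gave 3 control libraries, 3 Prdm16 cKO libraries and 1 library of a double knockout (DKO). Control mice were labelled Prdmflox/flox, cKO mice hGFAP-Cre+/-; Prdm16flox/flox and DKO mice hGFAP-Cre+/-; Prdm16flox/flox; Vcam1flox/flox. All groups thus carried floxed Prdm16 alleles. Only cKO and DKO mice carried the Cre transgene, so the presence of Cre and the loss of Prdm16 cannot be told apart. The human GFAP promoter drives Cre in embryonic radial glia, which give rise to neurons, astrocytes, ependymal cells and oligodendrocytes as well as NSCs. Each library pooled 2 to 3 mice aged 31 to 33 days, and all groups held mice of both sexes.

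AMPA receptors are tetramers of the GluA subunits that the 4 Gria genes encode, and they open a cation channel when they bind glutamate. Most receptors that contain the edited GluA2 subunit (Gria2) pass little calcium, while receptors without it pass calcium. Cacng4, Cacng5 and Cacng7 encode transmembrane AMPA receptor regulatory proteins (TARPs, the γ subunits). TARPs bind the receptor and shape its gating, and some of them bring it to the surface. Slc1a2 (GLT-1) and Slc1a3 (GLAST) encode the sodium-coupled transporters by which astrocytes remove glutamate, and Slc1a3 is also a classical gene of radial glia and adult NSCs. Neuroblasts and oligodendrocyte precursor cells (OPCs) are known to carry AMPA receptors before they mature.

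The libraries held 45758003 to 141353017 UMIs, each UMI standing for 1 captured mRNA molecule. Of 65049 barcodes, 43346 cells passed the limits on genes and mitochondrial counts, with 1868 to 9502 cells in a library, and 37396 of those that passed fell into 11 named types. Every type was named from its markers in clusters built without the 9 genes, and the 11 types are transit-amplifying progenitor (TAP)-like, neuroblast-like, neuron-like, NSC-like, astrocyte-like, ependymal-like, OPC-like, oligodendrocyte-like, endothelial-like, mural-like and microglia-like cells. The other 5950 cells fell into 3 unnamed clusters. The cells that passed were 49.8% and 47.2% of the barcodes in cKO libraries 2 and 3 and 70.2% to 74.7% in the other 5 libraries. The NSC-like cluster held 6 NSC markers and also 6 astrocyte markers, the astrocyte-like cluster held 7 astrocyte markers and also 3 NSC markers, and 1 of the mural-like clusters, of 340 cells, held 5 endothelial markers beside 5 mural ones, so that these names separate the leading genes of the clusters and not wholly distinct cells. Pairs of libraries shared 2 to 70 barcodes, at most 1.48% of the smaller library, and no pair held the same counts. Levels are CPM, the usual counts scaled to a fixed total of UMIs, of the cells of 1 type in 1 library, scaled by TMM, and in such sums fewer cells that carry a transcript and less of it per cell cannot be told apart. Prdm16 in NSC-like cells was 69.4, 61.2 and 72.2 CPM in the control libraries, 55.4, 52.2 and 50.04 CPM in the cKO libraries and 59.0 CPM in the DKO library. In these cells every cKO value lay below every control value. In astrocyte-like cells Prdm16 was 49.5, 44.6 and 47.7 CPM in control and 49.1, 60.5 and 51.8 CPM in cKO libraries, groups that overlapped. The sources used here do not say which part of Prdm16 is deleted, so counts at the 3′ end of the mRNA were not taken as a check of the deletion. Vcam1, the second targeted gene of the DKO mice, was 91.9 CPM in NSC-like cells of the DKO library and 110 to 143 CPM in those of the control libraries. Prm1, which encodes a sperm protamine and has no known role in brain, served as a marker of the libraries with Cre. No Prm1 UMI was counted in NSC-like cells of the 3 control libraries, while cKO libraries 1, 2 and 3 and the DKO library had 157, 328, 468 and 168 CPM. In ependymal-like cells control libraries 1, 2 and 3 held 1, 4 and 10 Prm1 UMIs, and neuroblast-like cells of control library 1 held 1.

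The genes lie at chr11:57011387-57330244 (Gria1, + strand), chr3:80681450-80802835 (Gria2, − strand), chrX:41400854-41678601 (Gria3, + strand) and chr9:4417896-4796234 (Gria4, − strand) of build GRCm38. Cacng4 and Cacng5 are neighbours at chr11:107732357-107794557 and chr11:107874605-107915055, both on the − strand, and Cacng7 is at chr7:3332955-3368221 on the + strand. Slc1a2 is at chr2:102658659-102790784 on the + strand and Slc1a3 at chr15:8634124-8710764 on the − strand. No member overlaps another gene on its own strand in GENCODE vM21. Cacng4 overlaps the antisense gene Gm11650, and Slc1a2 overlaps the antisense gene Gm13872. The sources used here do not say whether strand was used in counting, so reads of these 2 genes could include reads of their antisense partners.

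The distribution over the cell types differed from gene to gene, also among the Gria genes and among the TARPs. Gria1 was highest in neuron-like cells, at 380 to 506 CPM with a median of 412 CPM over the 7 libraries, and this range did not overlap that of any other type. Gria2 was highest in neuron-like cells (median 1442 CPM), then in OPC-like cells (median 910 CPM) and then in astrocyte-like cells (median 600 CPM). The first 2 of these ranges stood apart from the next lower one, while the range of astrocyte-like cells overlapped that of neuroblast-like cells (median 492 CPM). Gria3 was highest in neuron-like cells (median 260 CPM) and OPC-like cells (median 158 CPM), and its next highest median was 5.40 CPM, in endothelial-like cells. Gria4 was highest in OPC-like cells, at 89.1 to 129 CPM, and neuron-like cells (median 86.1 CPM), whose ranges overlapped, followed by oligodendrocyte-like cells (median 47.6 CPM), in which Gria1 and Gria3 had medians of 2.61 and 1.36 CPM.

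Among the TARPs, Cacng4 was highest in OPC-like cells, at 195 to 412 CPM, and its median was 112 CPM in neuroblast-like and 103 CPM in neuron-like cells, whose ranges overlapped. Cacng5 was highest in neuroblast-like cells, at 44.0 to 64.1 CPM, then in TAP-like cells, at 12.8 to 24.3 CPM. The neuroblast-like range stood apart from all others, while that of TAP-like cells stood apart from the next, NSC-like cells, and overlapped that of neuron-like cells (3.015 to 17.5 CPM). Cacng7 was low, with medians between 2.21 CPM in endothelial-like and 30.7 CPM in OPC-like cells and overlapping ranges at every step of its order. The ends of this order stood apart, at 0 to 3.67 CPM in endothelial-like and 18.0 to 54.1 CPM in OPC-like cells. Both transporters marked the astroglial types: Slc1a2 was at 7907 to 10510 CPM in astrocyte-like cells and 4996 to 6414 CPM in NSC-like cells, against a next highest median of 379 CPM in TAP-like cells. Slc1a3 had a median of 3353 CPM in astrocyte-like and 2334 CPM in NSC-like cells, ranges that overlapped slightly, and of 429 CPM in ependymal-like cells. In the NSC-like cells Cacng7 (median 16.8 CPM) and Cacng4 (median 16.1 CPM) were the TARPs with the higher counts, and Cacng5 had a median of 7.21 CPM.

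**Figure D1:**
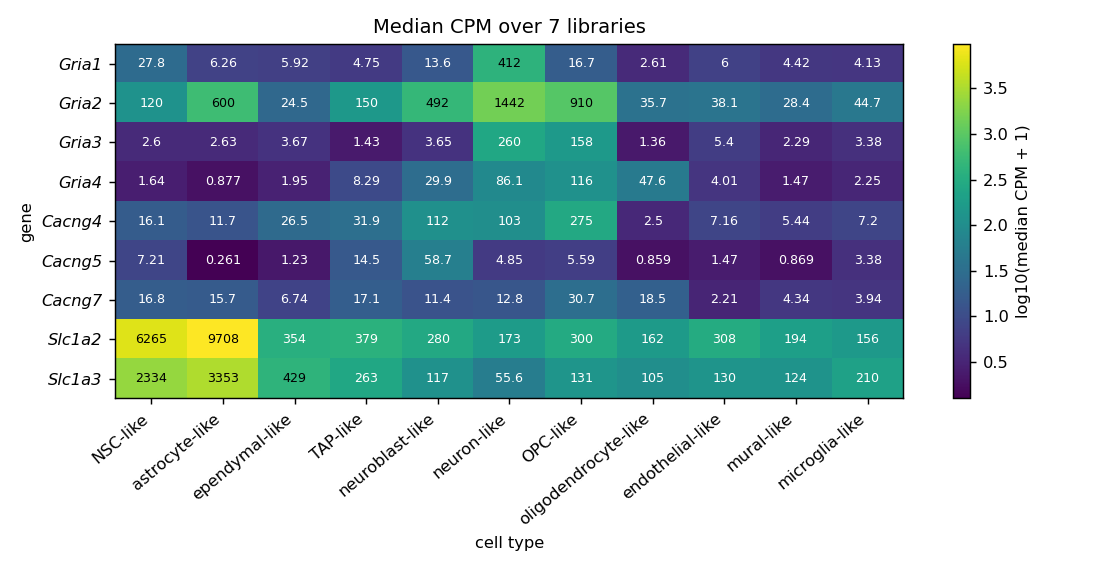
Median CPM of each of the 9 genes (rows) over the 7 libraries in each of the 11 cell types (columns); colour shows log10(median CPM + 1), and each cell prints the median. Slc1a2 and Slc1a3 peak in astrocyte-like and NSC-like cells, Gria1 and Gria3 in neuron-like cells, Gria4 and Cacng4 in OPC-like cells and Cacng5 in neuroblast-like cells.

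Of the 9 genes, 3 (Gria1, Gria2 and Slc1a3) were higher in NSC-like cells of every cKO library than of every control library, and Gria1 had the largest log2 difference of these. Gria1 was counted at 3.86, 4.87 and 8.53 CPM in control libraries 1, 2 and 3, from 28, 23 and 84 UMIs. In cKO libraries 1, 2 and 3 it was at 36.8, 61.7 and 72.3 CPM, from 212, 169 and 530 UMIs. The DKO library had 27.8 CPM from 243 UMIs. Every cKO library lay above every control library, the ratio of the group means was 9.89, and the edgeR estimate was 3.26 on the log2 scale (SE 0.35), given as a description because this difference chose the gene. Within the 4 libraries processed with Cell Ranger 6.0.1 the difference of log2(mean CPM + 1) was 3.23, and between the control and cKO library processed with version 6.1.1 it was 2.94. In this contrast 0.174% of all genes tested passed an adjusted p of 0.05, and 18.1% had groups that did not overlap.

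More cells were seen with a Gria1 UMI. With each cell thinned to 2000 UMIs, 0.782%, 0.230% and 1.37% of control NSC-like cells held at least 1, against 3.23%, 10.6% and 11.5% of cKO cells and 4.06% of DKO cells. The exact binomial intervals, which cover counting error only, reached at most 2.18% in the controls (control library 3) and began at 2.15%, 6.75% and 9.18% in the cKO libraries. Since higher Gria1 in these cells chose the list, the intervals are no test of the difference. In endothelial-like cells, used as a type that should lack the gene, the thinned share was 0.431% to 1.58% in control and 0.833% to 2.09% in cKO libraries. The shares of cKO NSC-like cells lay above this range in every library, though in cKO library 1 the interval of 2.15% to 4.63% overlapped that of its own endothelial-like cells, 0.771% to 4.50%. The shares of control NSC-like cells lay within this range or below it and are not read as expression. Thinning left out 1 to 74 shallower NSC-like cells in a library. Without thinning, the shares were 2.28%, 4.34% and 6.1% in control and 9.89%, 30.6% and 32.2% in cKO libraries, at median depths of 5287, 9445.5 and 7154 and of 5210, 12141 and 10421 UMIs. Endothelial-like cells had median depths of 2905 to 6200 UMIs, with unthinned shares of 0.567% to 5.10%.

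RNA of neurons, the type with most Gria1, was measured beside this. The summed level of the 6 neuron markers (Nrgn, Snap25, Syt1, Rbfox3, Ppp1r1b and Penk) in NSC-like cells was 75.6, 136 and 178 CPM in control and 86.6, 142 and 230 CPM in cKO libraries, groups that overlapped, with none of the 6 at 0 in all libraries and none higher in every cKO library than in every control library. For each 100 CPM of these markers, neuron-like cells held 4.75 to 7.79 CPM of Gria1 over the 7 libraries. NSC-like cells held 5.10, 3.57 and 4.80 in the control libraries, 42.5, 43.6 and 31.5 in the cKO libraries and 26.6 in the DKO library. By the sum of these 6 markers, Gria1 in control NSC-like cells was within or below the range of proportions in neuron-like cells. In cKO and DKO NSC-like cells it was above that range in every library. Ppp1r1b alone made up 47.8, 83.8 and 63.0 CPM of the sums in control and 54.8, 79.25 and 93.0 CPM in cKO NSC-like cells. In endothelial-like cells of the control libraries Ppp1r1b was 6.32, 19.2 and 31.45 CPM. The proportions therefore depend on this 1 gene, and the part of neuron RNA in Gria1 of these cells was not tested. The astrocyte marker list was also higher in cKO NSC-like cells, at 2027 to 2748 CPM against 1758 to 1830 CPM. So was the NSC marker list, at 5448 to 6848 CPM against 4972 to 5417 CPM. Of the 8 genes in each list, 3 and 1 were higher in every cKO library. Among all genes tested in this type, 18.1% had groups that did not overlap, in either direction. The part of these lists in the result was not tested.

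**Figure D2:**
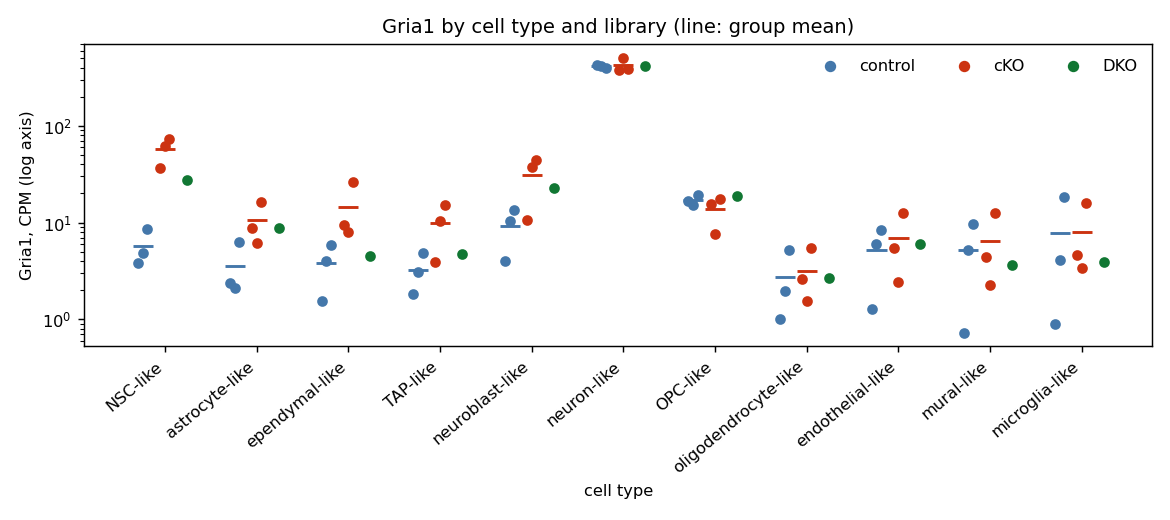
Gria1 in CPM (log axis) in each library for the 11 cell types; points are libraries coloured by group, and lines are means of the 3 control or 3 cKO libraries. The cKO libraries lie above the controls in NSC-like cells (36.8 to 72.3 against 3.86 to 8.53 CPM) and ependymal-like cells, while neuron-like cells hold about 400 CPM in every group.

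The NSC-like cells of cKO library 1 and of the DKO library were divided mostly between 2 clusters when libraries were not integrated. When the same cells were clustered without integration between libraries, a step examined after the data were seen, 92% to 95% of control NSC-like cells fell into 1 cluster, which held NSC-like and astrocyte-like cells together. Of the cKO NSC-like cells, 77.5%, 5.26% and 1.05% in libraries 1, 2 and 3 fell into that cluster, and 18.3%, 93.3% and 97.1% fell into a cluster apart. That cluster of 4723 cells, which had Prm1 among its leading genes, was left unnamed for its low median UMI count of 2065, though the NSC-like cells in it had medians of 6129 to 14144.5 UMIs in the Cre libraries. The DKO library was divided much as cKO library 1 was, with 74.3% and 22.4%. In CPM of the cells concerned, without TMM scaling, Gria1 was 6.66 in the 682 cells of cKO library 1 that clustered with the controls and 141 in the 161 cells of the cluster apart. In the DKO library it was 5.42 in 624 cells and 77.4 in 188 cells. The remaining 37 and 28 cells of these libraries, in other clusters, held 19.8 and 7.80 CPM from 6 and 3 UMIs. The cells apart held 64.0 and 68.2 in cKO libraries 2 and 3, and the control NSC-like cells of the shared cluster held 4.07, 4.69 and 7.79. Gria1 in the cells of cKO library 1 and the DKO library that clustered with control cells was therefore within the control range, and the higher level was found in the cells apart. In cKO libraries 2 and 3 the 11 and 7 cells that clustered with control cells held no Gria1 UMI, which allows levels of up to 23.5 and 56.8 CPM, so that no comparison with the controls was possible there. These are also the 2 libraries in which the fewest barcodes passed the limits, and the part of cell quality in this division was not tested. cKO library 1 shared 61, 70 and 22 barcodes with control libraries 1, 2 and 3, and 12 and 14 with cKO libraries 2 and 3. The DKO library shared 47 with control library 3 and 3 to 19 with each of the others. The part of shared barcodes in this division was not tested either. The few control cells apart, 23, 7 and 10 in libraries 1, 2 and 3, held 0, 4 and 5 Gria1 UMIs. These come to 67.0 CPM in control library 2 and 45.9 CPM in control library 3, while the 0 of control library 1 allows up to 41.4 CPM. On these few UMIs, Gria1 in the control cells apart of libraries 2 and 3 was above that of the other control cells and nearer to that of the cells apart in cKO libraries 2 and 3.

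Gria2 followed the same division. Cells apart held 227, 284, 232 and 222 CPM in cKO libraries 1, 2 and 3 and the DKO library. Cells that clustered with controls held 105 CPM in cKO library 1 and 73.0 CPM in the DKO library, against 87.8 to 122 CPM in the control libraries. The DKO value was thus below the control range. The control cells apart held 152, 268 and 220 CPM, from 11, 16 and 24 UMIs. Slc1a3 was 2740 to 2995 CPM in the cells apart of the 4 libraries with Cre. It was 2242 CPM in cKO library 1 and 2108 CPM in the DKO library among cells that clustered with controls, and 2161 to 2196 CPM in the control libraries. The few such cells of cKO libraries 2 and 3 held 3286 and 2385 CPM, from 420 and 126 UMIs, and that of cKO library 2 was above its cells apart (2995 CPM). The control cells apart did not share this higher level of Slc1a3, at 1768, 2379 and 2184 CPM from 128, 142 and 238 UMIs. Slc1a2 was lower in the cells apart than in the cells of the shared cluster in 5 of 7 libraries, among them cKO library 1 (5019 against 6267 CPM) and the DKO library (5788 against 6710 CPM), which held over 100 cells of each set. It was higher in cKO library 3 (5919 against 5868 CPM) and control library 2 (6317 against 5503 CPM), where 1 side held only 7 cells. Prm1 was detected in 69.6% of the cells apart and 17.3% of the others in cKO library 1, and in 78.7% and 29.0% in the DKO library. Prdm16 was 31.8 and 62.35 CPM in the same cells of cKO library 1, and 40.2 and 65.9 CPM in those of the DKO library. The cells apart of cKO libraries 2 and 3 held 50.9 and 46.2 CPM of Prdm16. In control cells of the shared cluster it was 64.9 to 78.05 CPM. The clusters were built from other genes of the same cells, Prm1 among them, so these are descriptions with no test, and the rarer side held only 7 to 23 cells of each control library and 11 and 7 cells of cKO libraries 2 and 3. With NSC-like cells taken from the clustering without integration, which left 17 and 11 such cells in cKO libraries 2 and 3, the cKO minus control difference of Gria1 was 0.17 on the log2 scale in place of 3.26.

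**Figure D3:**
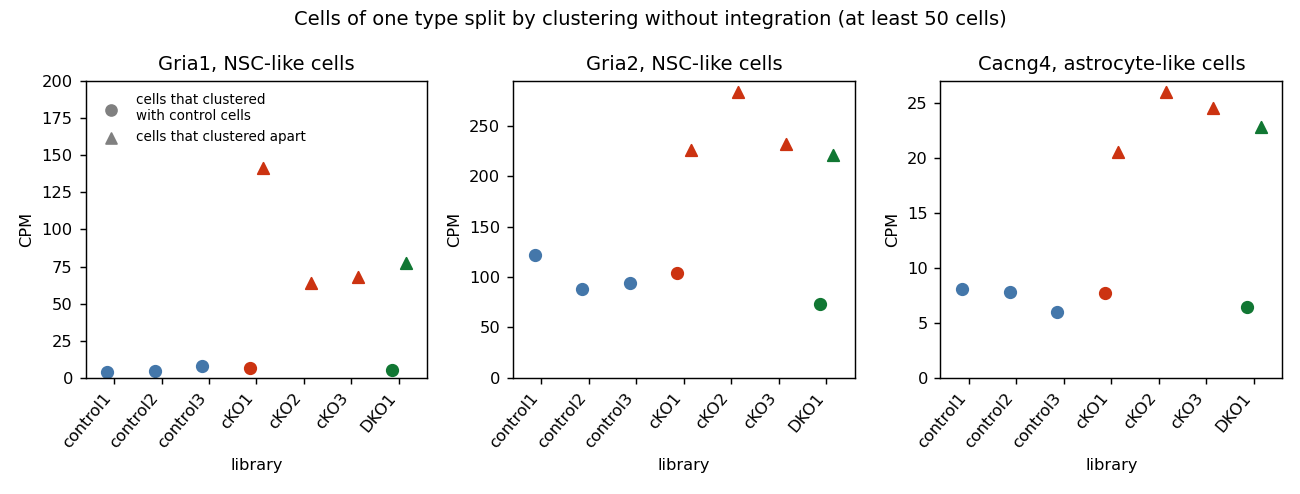
CPM by library of Gria1 and Gria2 in NSC-like cells and of Cacng4 in astrocyte-like cells, split into cells that clustered with control cells (circles) and cells that clustered apart (triangles) without integration; sets under 50 cells are not drawn. In cKO library 1 and the DKO library, which hold both sets, the triangles lie above the circles in each panel. The circles of Gria1 and Cacng4 lie within the control range, that of Gria2 in the DKO library (73.0 CPM) lies below it, and the Gria1 triangle of cKO library 1 (141 CPM) lies above those of cKO libraries 2 and 3 (64.0 and 68.2 CPM).

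The make-up of the AMPA subunit transcripts moved with Gria1. Gria1 supplied 3.38%, 5.22% and 7.81% of the Gria1 to Gria4 UMIs in control NSC-like cells, and 21.9%, 18.2% and 22.3% in cKO NSC-like cells. In the DKO library it supplied 18.3%. The exact binomial intervals of single libraries ended at 9.57% in the controls and began at 15.7% in the cKO libraries. They cover counting error only. Higher Gria1 in these same cells chose the list, so the intervals are a description and no test of the difference. Gria2 supplied 86.2% to 94.7% in controls and 76.0% to 80.7% in cKO libraries, so that it remained the main transcript. Capture differs between transcripts, so these shares were compared between libraries and not taken as the composition of the receptor. Outside NSC-like cells an exact two-sided permutation test of 3 libraries against 3 cannot go below a p of 0.1, so that no share could pass 0.05 and the values are given as they stand. In neuron-like cells the share of Gria1 was 19.3% to 21.0% in control and 17.6% to 18.1% in cKO libraries, groups that did not overlap (exact p = 0.1, the smallest possible). The largest gap between means was in ependymal-like cells, at 13.0% in control and 27.6% in cKO libraries, where the groups overlapped (exact p = 0.2). In astrocyte-like cells the means were 0.743% and 1.46% (exact p = 0.3). Over the 10 types compared, the Benjamini-Hochberg adjusted exact p was 0.429 for these 3.

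The other subunits in NSC-like cells were described in the same way. Gria2 was 108, 85.1 and 94.2 CPM in control libraries and 128, 274 and 246 CPM in cKO libraries, with 120 CPM in the DKO library, an estimate of 1.17 on the log2 scale (SE 0.26). Its groups did not overlap, though cKO library 1 was close to the controls. Gria3 was 1.24 to 4.88 CPM in controls and 2.602 to 3.95 CPM in cKO libraries, and Gria4 was 0.964 to 1.73 CPM and 0.365 to 1.64 CPM. Both overlapped, and their log2 differences of 0.32 (SE 0.52) and −0.36 (SE 0.58) were smaller than their standard errors.

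Outside NSC-like cells the 9 genes gave 77 tests in 10 types, while 13 member-by-type pairs were too low to fit. Of these, 1 was called by edgeR at an adjusted p of 0.05 and it was higher in cKO, while 11 had an unadjusted p under 0.05, all 11 higher in cKO. Over all genes of these types 5.22% of tests had an unadjusted p under 0.05, and 50.2% of those were higher in cKO. All 11 member tests fell in astrocyte-like, ependymal-like, TAP-like and neuroblast-like cells. There the shares of all genes with an unadjusted p under 0.05 were 10.0%, 8.54%, 5.94% and 8.45%. The 11 include Gria1 in each of these types. Its higher counts in NSC-like cells of the same cKO libraries chose the list, so the 11 are not independent of that choice. The share of all genes called was 1.21% in astrocyte-like, 0.144% in ependymal-like, 0.0072% in neuroblast-like, 0.00759% in neuron-like and 0.00888% in mural-like cells. It was 0% in TAP-like, OPC-like, oligodendrocyte-like, endothelial-like and microglia-like cells by edgeR, while the number of genes below an unadjusted p of 0.05 was 869, 563, 264, 233 and 308 and that called by DESeq2 was 68, 1, 4, 2 and 1.

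The member called was Cacng4, the γ4 TARP, in astrocyte-like cells. It was 7.92, 8.001 and 6.26 CPM in control libraries 1, 2 and 3 and 11.7, 23.7 and 24.7 CPM in cKO libraries 1, 2 and 3, and the DKO library had 14.3 CPM. The groups did not overlap, as in 15.0% of all genes tested in this type, and the lowest cKO value was again that of library 1. The log2 difference was 1.44 (SE 0.31, adjusted p = 0.0293, higher in 3 of 3 cKO libraries than in any control). The call was lost when any 1 control library, cKO library 2 or cKO library 3 was left out, with a limit of 5% mitochondrial counts and with marker gates, and over 15 alternatives the adjusted p ranged from 0.000228 to 0.265. All 15 gave a positive difference, of 1.04 to 1.73. Adjusted over all types together, the p was 0.185. In astrocyte-like cells that clustered with control cells without integration, Cacng4 was 7.69 CPM in cKO library 1 and 6.44 CPM in the DKO library, and in those apart it was 20.5 and 22.8 CPM, against 24.5 to 26.0 CPM in cKO libraries 2 and 3. The control cells apart were 28, 9 and 24 in number and held 1, 1 and 0 Cacng4 UMIs, too few to give a level.

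The Gria1 difference was positive in astrocyte-like, ependymal-like, neuroblast-like and TAP-like cells without passing the threshold with edgeR. In astrocyte-like cells it was 2.38, 2.11 and 6.26 CPM in control and 8.88, 6.14 and 16.5 CPM in cKO libraries, a log2 difference of 1.53 (SE 0.45, adjusted p = 0.148). In ependymal-like cells it was 1.55, 4.02 and 5.92 CPM in control and 9.49, 7.96 and 26.0 CPM in cKO libraries, with a difference of 1.89 (SE 0.58, adjusted p = 0.341) and a DKO value of 4.48 CPM, within the control range. In neuroblast-like cells it was 3.98, 10.3 and 13.6 CPM in control and 10.6, 37.8 and 44.7 CPM in cKO libraries, a difference of 1.72 (SE 0.68, adjusted p = 0.588). The groups overlapped in the astrocyte-like and neuroblast-like cells and not in the ependymal-like cells. With the replicate number as a block Gria1 was called in all 3 of these types. Without the filter on low counts or with the Cell Ranger version as a term it was called in astrocyte-like and ependymal-like cells. With marker gates it was called in astrocyte-like cells (log2 difference 2.33, edgeR adjusted p = 0.0497). In TAP-like cells, which divide and come from NSCs, it was 1.82, 3.06 and 4.86 CPM in control and 3.92, 10.4 and 15.1 CPM in cKO libraries, a difference of 1.54 (SE 0.54, adjusted p = 0.836), and it was called when cKO library 1 was left out. In neuroblast-like and TAP-like cells the value of cKO library 1 lay within the control range. Per 100 CPM of neuron markers, Gria1 was 1.20 to 3.17 in control and 7.14 to 9.31 in cKO astrocyte-like cells, 1.52 to 3.25 and 4.66 to 10.5 in ependymal-like cells, 2.84 to 4.23 and 5.18 to 8.48 in TAP-like cells and 2.67 to 5.55 and 7.43 to 15.0 in neuroblast-like cells. The cKO proportions overlapped the 4.75 to 7.79 of neuron-like cells or passed it, and the part of neuron RNA in these differences was not tested. In control astrocyte-like cells Ppp1r1b made up 62.6, 108 and 75.1 CPM of the marker sums, so their proportions too depend on this 1 gene.

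In neuron-like cells Gria1 was 428, 412 and 397 CPM in control and 380, 506 and 387 CPM in cKO libraries, a log2 difference of 0.04 (SE 0.24, adjusted p = 1.00). In OPC-like cells it was 15.3 to 19.2 CPM in control and 7.68 to 17.7 CPM in cKO libraries, a difference of −0.24 (SE 0.27, adjusted p = 0.971). In endothelial-like, mural-like and microglia-like cells Gria1 was at most 18.4 CPM and was highest in replicate 3 of both groups, which also held the most neuron-like cells (808 and 689). In endothelial-like cells its proportion to the neuron markers, 3.12 to 8.91 per 100 CPM, overlapped that of neuron-like cells. The part of neuron RNA in these levels was not tested.

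Gria2 in astrocyte-like cells was 600, 429 and 454 CPM in control and 673, 761 and 693 CPM in cKO libraries, groups that did not overlap, with a log2 difference of 0.52 (SE 0.19, adjusted p = 0.289). The DKO library had 556 CPM, within the control range. Gria3 was fitted in 9 of the 10 other types and Gria4 in 5. Their log2 differences ranged from −1.03 (Gria3 in microglia-like cells, SE 0.85) to 0.79 (Gria3 in astrocyte-like cells, SE 0.57), and none was called.

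Among the remaining TARP values none was called by edgeR. In TAP-like cells Cacng4 was 27.6, 26.8 and 28.4 CPM in control and 31.9, 62.5 and 48.4 CPM in cKO libraries, a log2 difference of 0.76 (SE 0.21, adjusted p = 0.76), and Cacng5 was 13.0 to 14.5 CPM in control and 15.6 to 24.3 CPM in cKO libraries, a difference of 0.49 (SE 0.20, adjusted p = 0.836). Neither pair of groups overlapped, as in 11.3% of all genes tested in TAP-like cells, and neither was called, though Cacng4 was called without the filter on low counts and without cKO library 1. In neuroblast-like cells, where both genes are high, the differences were 0.10 (SE 0.15) for Cacng4 and 0.03 (SE 0.17) for Cacng5. In NSC-like cells Cacng5 was 7.21 to 11.4 CPM in control and 10.2, 1.83 and 4.77 CPM in cKO libraries, a difference of −0.66 (SE 0.46), so that it was lower in cKO libraries 2 and 3 and within the control range in library 1. Cacng7 was fitted in 8 of the 10 other types, with differences of 0.09 to 0.49 and no call.

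**Figure D4:**
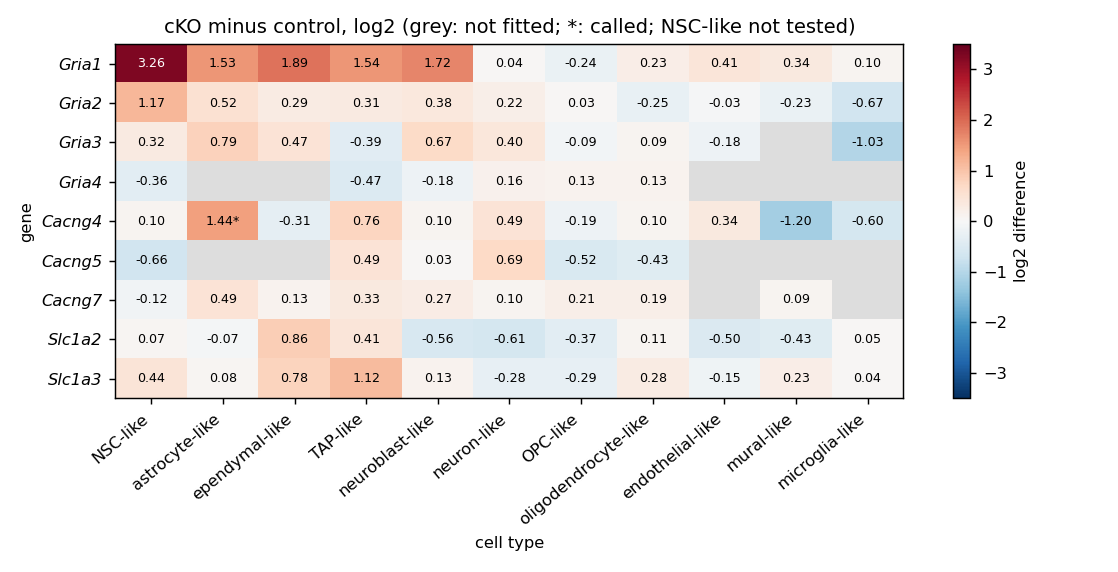
Log2 difference of cKO minus control from edgeR for each of the 9 genes (rows) in each cell type (columns); grey marks genes too low to fit and an asterisk an adjusted p under 0.05, with NSC-like cells not tested. Gria1 is positive from NSC-like (3.26) through neuroblast-like cells (1.72) and near 0 in neuron-like cells (0.04), and Cacng4 in astrocyte-like cells (1.44) carries the asterisk.

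The 2 transporters varied together over cell types, with a Pearson r of 0.934 between Slc1a2 and Slc1a3 in log2(CPM + 1) over the 77 sums of 1 type in 1 library, which share libraries and types. Promoters in the RefSeq table (GRCm38.p6, from 250 bases before to 50 after the start of transcription) were held for 6 of the 9 genes, and those of these 2 are shown, since they have the most similar levels among the members. Capitals mark 3 short motifs on either strand, which do not overlap each other here: the GC box (written GGGCGG), the CCAAT box (written CCAAT) and a TATA box (written TATAAA). Slc1a2 is read from chr2:102706188-102706487 (+ strand) and Slc1a3 from chr15:8710758-8711057 (− strand).
Slc1a2: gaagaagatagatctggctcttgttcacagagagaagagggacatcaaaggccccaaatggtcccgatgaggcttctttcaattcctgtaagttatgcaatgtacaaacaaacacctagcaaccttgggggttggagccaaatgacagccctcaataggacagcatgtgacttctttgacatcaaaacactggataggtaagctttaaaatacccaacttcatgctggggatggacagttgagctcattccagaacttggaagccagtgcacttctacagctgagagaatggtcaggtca
Slc1a3: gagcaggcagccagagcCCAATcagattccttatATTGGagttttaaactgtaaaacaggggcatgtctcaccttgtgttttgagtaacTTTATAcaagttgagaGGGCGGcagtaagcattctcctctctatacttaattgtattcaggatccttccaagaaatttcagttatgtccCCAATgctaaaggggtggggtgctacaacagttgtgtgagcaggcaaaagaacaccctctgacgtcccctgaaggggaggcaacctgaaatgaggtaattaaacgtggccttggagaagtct
The Slc1a3 promoter holds CCAAT 3 times, GGGCGG 1 time and TATAAA 1 time, and the Slc1a2 promoter holds none of the 3. CCAAT was found in 37.4%, GGGCGG in 35.7% and TATAAA in 13.6% of the 32851 promoters in the table. The GC content was 45.7% for Slc1a2 and 45.3% for Slc1a3, against a median of 52.7%. The start used for Slc1a2 lies inside the gene as GENCODE vM21 draws it.

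In ependymal-like cells, the ciliated cells that line the ventricle, both transporters were higher in every cKO library than in every control library. Slc1a2 was 326, 263 and 354 CPM in control and 533, 473 and 714 CPM in cKO libraries, a log2 difference of 0.86 (SE 0.20, adjusted p = 0.128). Slc1a3 was 276, 350 and 366 CPM in control and 481, 486 and 734 CPM in cKO libraries, a difference of 0.78 (SE 0.20, adjusted p = 0.203). Neither was called by edgeR, while both were called by DESeq2, without the filter on low counts and in the fit blocked by replicate number. Slc1a2 was also called with marker gates. Of all genes tested in this type, 14.7% had groups that did not overlap. Over 16 alternatives the adjusted p ranged from 0.000613 to 0.503 for Slc1a2 and from 0.0032 to 0.672 for Slc1a3, and all gave a positive difference. The DKO library had 335 CPM of Slc1a2, within the control range, and 429 CPM of Slc1a3, above it. Astroglial RNA in these cells was measured beside them: the 8 astrocyte markers summed to 1123, 866 and 1035 CPM in control and 1179, 1136 and 1109 CPM in cKO libraries, with 1 of 8 higher in every cKO library, and the 8 NSC markers to 1071, 1561 and 1299 CPM and 1257, 1275 and 1668 CPM, with 2 of 8 higher. The part of these in the result was not tested. After thinning to 2000 UMIs, 32.1% to 36.5% of control and 39.5% to 51.4% of cKO ependymal-like cells held a Slc1a2 UMI, and 34.9% to 43.2% and 48.6% to 62.1% held a Slc1a3 UMI. Thinning left out 64 to 393 ependymal-like cells in a library. Median depths of ependymal-like cells were 2385, 1317 and 2665 UMIs in control and 8154, 3644 and 3038.5 UMIs in cKO libraries. Every cKO library was thus deeper than every control library in this type, and the DKO library had 1840.5 UMIs. The part of depth in these results was not tested. The unthinned shares of Slc1a2 were 56.8% to 63.5% in control and 61.9% to 71.2% in cKO libraries.

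In TAP-like cells Slc1a3 was 193, 176 and 232 CPM in control and 263, 464 and 581 CPM in cKO libraries, with 271 CPM in the DKO library. The groups did not overlap, and the log2 difference was 1.12 (SE 0.27, adjusted p = 0.732). It was called with DESeq2, without the filter on low counts and without cKO library 1. In astrocyte-like cells, where the transporters are highest, Slc1a2 differed by −0.07 (SE 0.19) and Slc1a3 by 0.08 (SE 0.18), both less than their standard errors. In NSC-like cells Slc1a2 differed by 0.07 (SE 0.21), while Slc1a3 was 1917, 2014 and 2190 CPM in control and 2339, 3063 and 2902 CPM in cKO libraries, a difference of 0.44 (SE 0.21). Slc1a2 in neuroblast-like cells was 152 to 479 CPM in control and 137 to 293 CPM in cKO libraries, and a small neuroblast-like cluster of 176 cells held 4524 CPM of it. In the main neuroblast-like cluster of 8226 cells Slc1a2 was far lower, at 113 to 162 CPM in control and 114 to 126 CPM in cKO libraries without TMM scaling, groups that overlapped.

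**Figure D5:**
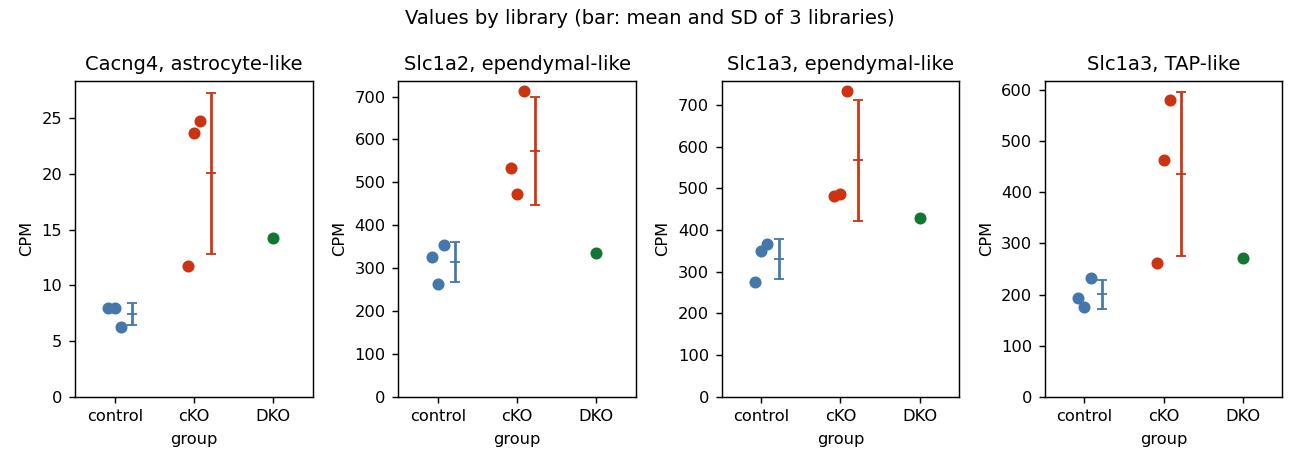
CPM by library of Cacng4 in astrocyte-like cells, Slc1a2 and Slc1a3 in ependymal-like cells and Slc1a3 in TAP-like cells; points are libraries, and bars are the mean and SD of 3 libraries. In all 4 panels the 3 cKO libraries lie above the 3 control libraries, and of the 4 differences that of Cacng4 passed the threshold with edgeR (adjusted p = 0.0293), while all 4 passed it with DESeq2.

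The difference between cKO effects was tested for each of 9 types against astrocyte-like cells, whose libraries enter all of these tests. For Cacng4 the effect in OPC-like minus that in astrocyte-like cells was −1.60 on the log2 scale (SE 0.25, adjusted p = 0.00307), and for mural-like cells it was −2.67 (SE 0.54, adjusted p = 0.0334), from 72 UMIs of Cacng4 in mural-like cells. For Gria1 the same difference in OPC-like cells was −1.78 (SE 0.40, adjusted p = 0.0437), from 136 UMIs of Gria1 in astrocyte-like cells. Higher Gria1 in NSC-like cells of the same cKO libraries chose the list, so this call is not independent of that choice. For the transporters the effect in ependymal-like cells was higher than in astrocyte-like cells, by 0.91 for Slc1a2 (SE 0.17, adjusted p = 0.0137) and by 0.67 for Slc1a3 (SE 0.16, adjusted p = 0.0467). The effects themselves were 0.86 and −0.07 for Slc1a2 and 0.78 and 0.08 for Slc1a3. Among all genes, the share called in these tests was 1.11% in ependymal-like, 0.356% in TAP-like, 0.38% in neuroblast-like, 0.432% in neuron-like, 0.849% in OPC-like, 0.413% in oligodendrocyte-like, 0.251% in endothelial-like, 0.46% in mural-like and 0.304% in microglia-like cells. Of the 5 calls, that of Cacng4 in OPC-like cells held in 9 of 10 alternatives, and each of the others was lost in at least 5.

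Within the Cre libraries, NSC-like cells with at least 1 Prm1 UMI were compared with those without, as 2 sums from each library. Gria1 was 71.6 CPM in detected and 16.3 CPM in undetected cells of cKO library 1, and 39.4 and 16.1 CPM in the DKO library. In cKO libraries 2 and 3 it went the other way, at 57.0 and 62.5 CPM in detected and 77.4 and 93.5 CPM in undetected cells. The difference was 0.65 on the log2 scale (SE 0.64, adjusted p = 0.662, higher in 2 of 4 libraries), and none of the 8 members fitted was called, while 8.19% of all genes were. Cacng5 came nearest, being lower in detected cells of 4 of 4 libraries, by −1.05 (SE 0.32, adjusted p = 0.0503), with only 2 and 3 UMIs in cKO library 2. In astrocyte-like cells Cacng4 was higher in detected cells of 3 of 4 libraries, by 0.81 (SE 0.27, adjusted p = 0.149), where 0.801% of all genes were called. Detected cells were deeper in all 4 libraries, with median UMI counts of 6613 to 14430 against 4860 to 9002 in NSC-like cells, and a deeper cell is more likely to show a Prm1 UMI. Prm1 was also counted in endothelial-like (4.91 to 18.0 CPM) and microglia-like cells (3.38 to 18.0 CPM) of the Cre libraries. The part of Prm1 RNA from outside the cell in this split was not tested.

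The pathway around these genes was followed with 4 lists. These lists were drawn up with earlier results of these data known. Of 14 other AMPA receptor auxiliaries, 9 were fitted in astrocyte-like cells, 1 was called higher and none lower, and the median log2 difference was 0.38 against −0.003 for all genes, of which 1.21% were called in this type (124 higher and 23 lower). The gene called was Shisa9 (CKAMP44), an auxiliary that slows recovery from desensitization, at 72.9, 74.5 and 85.0 CPM in control and 134, 190 and 221 CPM in cKO libraries (log2 difference 1.23, SE 0.19, adjusted p = 0.00344). Of 20 other glutamate receptors 13 were fitted there and 2 were called higher, against the same 1.21% of all genes. Grin3a, an NMDA receptor subunit, was 18.2 to 29.2 CPM in control and 44.4, 91.2 and 94.4 CPM in cKO libraries (1.64, SE 0.29, adjusted p = 0.0230). Grm8, a metabotropic receptor, was at 0, 0 and 1.04 CPM in control and 4.21, 12.3 and 22.7 CPM in cKO libraries (adjusted p = 0.0457). Its control counts were too low for the filter, so Grm8 was fitted only through the libraries with Cre, where it is higher. Its part in the count of 2 is therefore not independent of the filter. The DKO library had 122 CPM of Shisa9, 51.3 CPM of Grin3a and 10.7 CPM of Grm8, each above the control values. Of 12 genes of receptor trafficking, clustering and editing and 16 other glutamate carriers and enzymes of glutamate metabolism, 9 and 12 were fitted in astrocyte-like cells and none was called. No gene of the 4 lists was called in the other 9 types, where the median differences lay between −0.60 and 0.55. The highest of these medians was that of the other AMPA auxiliaries in neuroblast-like cells, where all 13 fitted had a positive difference and none was called, while 51.5% of all genes had one. This was not tested.

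Likeness of level was measured by Pearson r of log2(CPM + 1) over the same 77 sums, among 13977 genes with a mean of at least 10 CPM in at least 1 type. The genes most like Gria1 were Camk4 (0.901), Cacna2d3 (0.896), Arpp21 (0.895), Rgs9 (0.892) and Prmt8 (0.891). Among those most like Gria2 were Robo1 (0.912), Cadm3 (0.908), Timm9 (0.890) and Ttc19 (0.878), and those most like Slc1a2 were Ntsr2 (0.975), Acsbg1 (0.959), Cldn10 (0.958), Slc6a11 (0.95) and Bmpr1b (0.946). Among the members, Gria1 was most like Gria3 (0.745), and Gria2 was most like Cacng4 (0.767). Gria4 ran against Slc1a3 (−0.594).

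The 3 unnamed clusters were described as well, in CPM of their cells without TMM scaling. The largest, of 3163 cells, had hemoglobin genes and Gfap among its leading genes, a median depth of 1189 UMIs and 3611 CPM of Slc1a2. Its Gria1 was 18.9, 35.7 and 24.9 CPM in control libraries, 23.3, 54.0 and 68.4 CPM in cKO libraries and 27.7 CPM in the DKO library. These groups overlapped, and the control values were above those of control NSC-like cells. A cluster of 1085 cells with a median of 1454 UMIs, led by S100a8, Dcn and Col1a1, drew 862 of its cells from control library 2, and its Gria1 ran from 0.702 to 50.7 CPM in control and from 0 to 40.2 CPM in cKO libraries. A cluster of 1702 cells led by genes of DNA replication such as Mcm3 and Uhrf1 held Gria1 at 3.82, 1.95 and 8.58 CPM in control libraries and 7.71, 30.8 and 45.8 CPM in cKO libraries, with 14.1 CPM in the DKO library. The cKO library 1 value lay within the control range. Cacng4 in the same cells was 15.9, 16.2 and 18.8 CPM in control libraries, 33.4, 65.2 and 58.3 CPM in cKO libraries and 37.3 CPM in the DKO library. Its groups did not overlap, and neither did those of Gria2 (93.1 to 126 against 145 to 276 CPM in cKO libraries), Cacng5 (8.17 to 15.6 against 21.7 to 35.8 CPM) and Slc1a3 (236 to 332 against 350 to 769 CPM). The groups of Gria1, Gria3, Gria4, Cacng7 and Slc1a2 overlapped in this cluster. The share of all genes without overlap was not measured in it. In the named types that share ran from 6.65% in oligodendrocyte-like to 18.1% in NSC-like cells. Whether the members separate more often than other genes in this cluster was therefore not tested. Single members were not tested in the unnamed clusters either, since these have no type.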

How the data were processed

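Cells of the V-SVZ were captured with 10x Chromium 3′ chemistry v3.1. The authors deposited raw UMI counts for each gene and cell, made with Cell Ranger. The file headers give version 6.0.1 for 4 libraries and 6.1.1 for 3, and the labels name mm10. Depth was 45758003 to 141353017 UMIs a library, and intervals cover counting error only.

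Cells with 500 to 7000 genes and at most 10% mitochondrial counts were kept. Scrublet marked 1043 doublets (for 1 library with a replaced threshold), which were kept and left out as an alternative. Libraries were integrated (Seurat 5.3.0, 2000 variable features without the 9 genes, 30 components, resolution 0.15). Clusters were named from at least 3 markers. Clusters with low UMI counts were left unnamed, a rule set after seeing the data. The members, gene lists and markers were chosen with earlier results of these data known.

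Counts were summed for each type and library and fitted with edgeR 4.0.16 (quasi-likelihood test, 3 groups, TMM, filterByExpr, robust), with Benjamini-Hochberg adjustment within each type at 0.05. DESeq2 1.42.0 was an alternative. The labels do not tie libraries to separate experiments beyond their number, so p-values measure the spread between these libraries. The DKO group has 1 library and no test. The genes named were the 9 members, Prdm16, Vcam1, Prm1 and neuron markers, every pathway gene called outside NSC-like cells, and the 5 genes most like Gria1, Gria2 and Slc1a2 in level. A gene among those most like Gria2 is not reported here. Mcm3, Uhrf1, Gfap, S100a8, Dcn, Col1a1 and the hemoglobin genes were named after their values were seen.

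Same-numbered libraries deviated together (correlations over 0.1 for every pair) in oligodendrocyte-like (0.385, 0.107 and 0.44), endothelial-like (0.218, 0.131 and 0.424) and mural-like cells (0.286, 0.111 and 0.385), from the replicate numbers in the labels. With the replicate block 11, 5 and 9 genes were called there, against 0, 0 and 1 without it, and none of them was a member.

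Tested on simulated data, the fit recovered 160 of 200 changed genes (80%) in astrocyte-like sums with 7 false calls. It recovered 148 (74%) in neuroblast-like sums with 8 false calls. In the Prm1 comparison it recovered 197 (98.5%) with 14 false calls, and for the interaction 51 (25.5%) with 6. The changed genes were drawn only from genes above a floor of average level, and each was changed by the same factor, up or down. Recovery at the low levels of many members was therefore not measured, and these shares do not give the power for them.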

Additional observations from a re-analysis of the deposited data

Results flagged for a closer look

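Effects of cKO in a type that differed from those in astrocyte-like cells, by edgeR's interaction test with Benjamini-Hochberg adjustment, were those on Cacng4 in OPC-like (−1.60 on the log2 scale, adjusted p = 0.00307) and mural-like cells (−2.67, adjusted p = 0.0334), on Gria1 in OPC-like cells (−1.78, adjusted p = 0.0437), and on Slc1a2 (0.91, adjusted p = 0.0137) and Slc1a3 (0.67, adjusted p = 0.0467) in ependymal-like cells. The astrocyte-like sums are shared by all of these, and the call of Gria1 is not independent of the choice of the list.

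In the single DKO library, 11 of 99 member levels had a counting interval wholly above that of the highest control library. These were Gria1 in NSC-like (27.8 CPM) and neuroblast-like cells (22.5 CPM) and Gria2 in neuron-like cells (1750 CPM). They were also Cacng4 in TAP-like (45.1 CPM) and OPC-like cells (412 CPM), and Cacng7 in TAP-like (22 CPM) and oligodendrocyte-like cells (33.7 CPM). The others were Slc1a2 in NSC-like cells (6410 CPM) and Slc1a3 in NSC-like (2330 CPM), ependymal-like (429 CPM) and TAP-like cells (271 CPM). In the other direction, 1 member level, Slc1a3 in microglia-like cells (134 CPM), had an interval wholly below that of the lowest control library. Of the 86 member levels that could be fitted, 12.8% were above and 1.16% below, against 3.85% and 1.89% of the 141055 gene levels fitted over all genes and types. The intervals cover counting error only and narrow as counts rise, the members were not matched to other genes on their counts, and these differences were not tested.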

How the results depend on the processing

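Members called outside NSC-like cells numbered 1 (Cacng4 in astrocyte-like cells), and 4 with DESeq2, 7 without a filter on low counts, 6 with the replicate block, 3 with the Cell Ranger version as a term, 2 with marker gates, 0 at 5% mitochondrial counts and 0 adjusted over all types together. Without integration no cluster was named astrocyte-like, so the 1 call could not be fitted there, and the count of 0 covers the other types. Leaving out 1 library gave 0 to 4, with 4 without cKO library 1, 1 without the DKO library and 0 without each other library. Genes called in those types numbered 170, and 451 with DESeq2, 1315 without the filter, 953 with the replicate block, 274 with the version term, 32 without integration (where the astrocyte-like cells, with 147 of the 170, were not fitted) and 42 to 1311 with 1 library left out (1311 without cKO library 1). In types other than the oligodendrocyte-like, endothelial-like and mural-like cells, same-numbered libraries share only a number (some correlations were under 0.1), although in astrocyte-like, ependymal-like and microglia-like cells each correlated best with its own number. There the block gave, for example, Gria1 in astrocyte-like cells a log2 difference of 1.54 (adjusted p = 0.00594). The difference of Gria1 in NSC-like cells was 0.17 without integration in place of 3.26, with few cells left in cKO libraries 2 and 3, and 2.77 to 3.72 elsewhere. Alternatives for the interactions were chosen after seeing the data. At 5% mitochondrial counts they were not called, at −1.63 and −2.40 for Cacng4 in OPC-like and mural-like cells, −2.36 for Gria1 in OPC-like cells and 0.95 and 0.67 for Slc1a2 and Slc1a3 in ependymal-like cells. Cacng4 in mural-like cells was −2.39 with marker gates and Gria1 in OPC-like cells −1.61 at resolution 0.3, neither called. Leaving out 1 library gave −3.88 to −2.23 for Cacng4 in mural-like and −2.42 to −1.47 for Gria1 in OPC-like cells, and 0.69 to 1.08 for Slc1a2 and 0.47 to 0.79 for Slc1a3 in ependymal-like cells, with calls lost in each. The difference in the share of NSC-like cells with a Gria1 UMI was 7.65 percentage points thinned and 20.0 unthinned. Gria1 by Prm1 detection stayed uncalled in 10 of 10 alternatives (0.14 to 1.46). The cause of these changes was not tested. No direction reversed among these. Depth limits Gria3, Gria4, Cacng5 and Cacng7 most, with 13 member-by-type pairs too low to fit.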
